A study of Mus musculus with 6 samples.

Results

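The genes described here encode 7 chemokine receptors that infiltrating leukocytes carry: Ccr1, Ccr2, Ccr7, Cx3cr1, Cxcr3, Cxcr4 and Cxcr6. They were taken by their gene name on the array, which gave 9 probes for the 7 genes, out of 55681 probes and 34844 gene names in all. RNA was measured in bulk glomeruli, the filtering tufts of the kidney, isolated by bead perfusion. Yaa samples came from male BXSB/MpJ-Yaa mice aged 4 months, a model of glomerulonephritis whose Y chromosome carries the Yaa duplication of the end of the X chromosome, and control samples from male BXSB/MpJ-Yaa+ mice aged 4 months with the wild-type Y chromosome. Both strains share the BXSB background, from a C57BL/6 female and an SB/Le male. Each strain gave 6 glomerular populations, combined 2 by 2 into 3 arrays, so a value is that of a pool and not of 1 mouse.

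Chemokine receptors are G protein-coupled receptors of the leukocyte surface. A chemokine bound to the receptor activates a Gi protein, and the cell turns and crawls toward the source. Ccr2 is known for bringing classical monocytes out of the bone marrow, Cx3cr1 for patrolling monocytes and resident tissue macrophages, Ccr1 for monocytes and neutrophils, Cxcr3 and Cxcr6 for activated T cells and natural killer (NK) cells, Ccr7 for naive T cells and mature dendritic cells, and Cxcr4 for a wide range of leukocytes and for tissue cells.

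The array reads each receptor through 60-base probes, and the printed stretches are the last 30 bases of those on which the results turn, 5′ to 3′, placed on mm9. The brighter Cx3cr1 probe and the Cxcr4 probe hold the polyadenylation signal AATAAA, in capitals, from base 39 of the probe, and in the pair of Cxcr6 probes capitals mark the printed bases that the other probe of the gene also holds. Which exon or untranslated region each lies in was not analysed here.
Cx3cr1 probe 1, chr9:119957811-119957870, minus strand: attctgtcAATAAAcattggtttccttcca
Cx3cr1 probe 2, chr9:119959018-119959077, minus strand: ggtctcatttgcaggcttacattgaaagtt
Cxcr3, chrX:98926920-98926979, minus strand: tctcagtatctcaatatttgcccaatttta
Cxcr6 probe 1, chr9:123720719-123720778, plus strand: GGACTCTGGTGGCTTTGCTCatctaaaaaa
Cxcr6 probe 2, chr9:123720709-123720768, plus strand: AAATACAAGAGGACTCTGGTGGCTTTGCTC
Cxcr4, chr1:130485079-130485138, minus strand: gtaaattgAATAAAgctagccgtgatcctc
Ccr1, chr9:123877790-123877849, minus strand: ctgtaacaaactaaagtttttctatccaat

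The signal was found in 2 of the 9 probes of these genes as printed and in 10.1% of all probes (3.74% on the opposite strand). The Cxcr6 probes overlap by 50 bases and are close to 1 measurement, while the Cx3cr1 probes share no run over 6 bases and read separate places in the transcript. The longest run that a probe of these genes shared with a probe of another name was 14 to 16 bases, except for the brighter Cx3cr1 probe, described with its values.

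All values are log2 signals relative to the 75th percentile of their array, so 0 is that percentile. They are listed in the order of replicates 1, 2 and 3, and differences are Yaa minus control ± SE from limma with n = 3 arrays per group. The 75th percentile lay between 261.2 and 432.1 signal units and 50.5% to 59.8% of the spots of an array were well above background, as the scanner software flags it. The number of arrays limits the precision. The title, the description and the genotype gave each sample the same strain, whereas the source name gave the opposite one. Tlr7, a gene inside the duplicated segment, was higher by 0.91 ± 0.12 on the arrays labelled Yaa (adjusted p = 0.00693). Of the markers of the tissue, those measured for podocytes and for the glomerular endothelium had list means of 5.87 to 6.34 and 4.66 to 5.15 over the arrays. Proximal tubule markers had means of 2.51 to 4.00, and the podocyte marker Nphs1 was above background on too few arrays to be tested.

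Cx3cr1, the fractalkine receptor, was the receptor among the 7 that passed the test over all genes. Its signal on the brighter probe was 0.23, 0.53 and -0.25 in controls and 2.91, 2.49 and 2.07 in Yaa. Every Yaa array lay above every control array. The difference was 2.33 ± 0.28, or 5.01-fold (adjusted p = 0.00534). The dimmer probe rose by 2.43 ± 0.24, from -2.20 ± 0.31 to 0.23 ± 0.36 (SD). Another probe, TC1715571, named after a transcript cluster that the array file also assigns to the brighter Cx3cr1 probe, shares 55 bases with that probe and differed by 2.49 ± 0.23. Within the same replicate number, which is also the row of the slide, the 3 differences on the brighter probe were 2.68, 1.97 and 2.33. In bulk glomeruli, more cells that carry Cx3cr1 and more Cx3cr1 RNA per cell cannot be told apart.

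Some markers of the cells known to carry Cx3cr1 rose as well. Of 9 measured macrophage markers 5 rose and none fell, with a median difference of 2.13, and their mean signal ran from 0.56 to 0.60 on control arrays and from 2.33 to 2.72 on Yaa arrays. Among the Yaa arrays that mean went up from replicate 1 to 3 (2.33, 2.51 and 2.72), whereas Cx3cr1 went down (2.91, 2.49 and 2.07). Adgre1, a surface protein used to identify mouse macrophages (Emr1 on the array), rose by 4.65 ± 0.20, Mpeg1, a pore-forming protein of phagocytes, by 3.92 ± 0.27, Cd68 by 3.47 ± 0.24 and Csf1r, the receptor for the growth factor of macrophages, by 2.13 ± 0.13. Vsig4 and Timd4, markers of some resident macrophages, were not well above background on any array, nor was Cd163 on any Yaa array. Of 7 markers of non-classical monocytes, the subset with high Cx3cr1, 4 rose: Pou2f2 by 3.47 ± 0.34, Treml4 by 2.64 ± 0.35, Itgal by 2.30 ± 0.23 and Spn by 1.87 ± 0.21. With normexp correction the rise was 3.17 for Adgre1, 2.63 for Pou2f2, 1.27 for Treml4 and 1.49 for Itgal, and all of them still passed. With the kept probes of a gene averaged in place of the brightest, the rise was smaller for some. It was 3.65 for Adgre1, 1.51 for Csf1r and 1.67 for Itgal, and these still passed. The mean signal of the 7 non-classical monocyte markers was -0.99 to -0.39 on control and 0.89 to 1.36 on Yaa arrays. The part of these cells in the rise of Cx3cr1 was not tested.

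Of the 6 receptors measured, 1 rose, none fell and 5 did not pass, where 2.96% of the 20716 genes tested rose and 3.81% changed either way. For 4 of the 6, Cx3cr1, Cxcr3, Cxcr6 and Cxcr4, every Yaa array was above every control array, against 7.81% of all genes. The same 4 had an unadjusted p under 0.05, as had 16.1% of all genes. The median difference was 1.22 over the 6 receptors and -0.11 over all genes. These counts are a description only, since Cxcr3 and Cxcr6 entered the test through the Yaa arrays: each was well above background on all 3 of them and on 2 of the 3 control arrays.

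**Figure D1:**
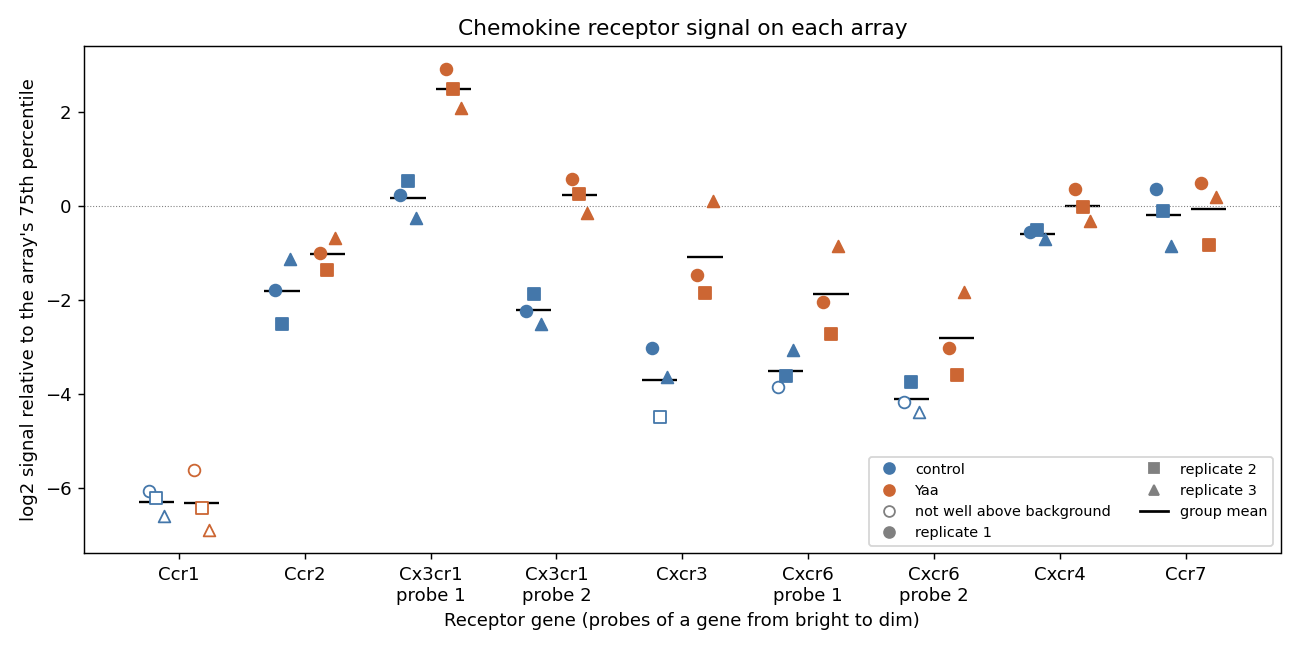
Each point is 1 array, plotted as log2 signal relative to the array's 75th percentile on the vertical axis, for each probe of the 7 receptors along the horizontal axis, with bars at the group means and open symbols where the spot was not well above background. The Yaa arrays of both Cx3cr1 probes lie above all control arrays, Cxcr3 and Cxcr6 are highest on Yaa replicate 3, and Ccr1 is open throughout.

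Ccr2, the monocyte receptor for Ccl2, did not pass. Its signal was -1.78, -2.52 and -1.13 in controls and -0.99, -1.36 and -0.69 in Yaa. The groups overlap, because control replicate 3 lies above Yaa replicate 2. The difference was 0.80 ± 0.36 (adjusted p = 0.334), with 1.14 when control replicate 3 was left out and 0.45 when control replicate 2 was. Markers of classical monocytes, the subset with high Ccr2, gave 0 of 7 past limma's test and 1 at an unadjusted p under 0.05 (Plac8, at 0.93 ± 0.38). The median of that list was 0.30, and its mean signal ran from 0.97 to 1.39 on control and from 0.93 to 1.69 on Yaa arrays. Ly6c2, also listed, had no probe by that name, and Ly6c1, at 7.36 to 8.19 over the arrays, was the brightest of the 7. Which cells of the bulk glomeruli gave the Ly6c1 signal was not tested. Chil3 (Chi3l3 on the array) stood at 0.63 ± 0.34, F13a1 at -1.12 ± 0.64 and Vcan at -0.29 ± 0.19.

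Ccr1, a receptor for Ccl3, Ccl5, Ccl6 and Ccl9, could not be measured. Its only probe gave 2.76 to 3.60 signal units on control and 2.97 to 5.03 on Yaa arrays, all of them surrogate values that the software sets for spots at background. No array had it well above background, so no fold change is given. The probe has a GC content of 21.7%, which 0.449% of all probes reach or fall below, while the probes of the other 6 receptors have 35.0% to 45.0% and the median probe 43.3%. What this low GC content does to the signal was not tested.

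Cxcr3, the receptor for the interferon-induced chemokines Cxcl9 and Cxcl10, had the largest difference of the 6 measured receptors without passing the test. Its signal was -3.01, -4.47 and -3.63 in controls and -1.47, -1.85 and 0.10 in Yaa. All Yaa arrays were higher than all control arrays, and Yaa replicate 3 stood well above the other Yaa arrays. The difference was 2.63 ± 0.57 (adjusted p = 0.0612). With variances that follow the signal intensity, fitted robustly, the adjusted p was 0.0457, and with normexp background correction the difference was 1.06 (adjusted p = 0.146). Cxcr3 lies on the X chromosome, outside the duplicated segment.

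Cxcr6, the receptor for the membrane-bound chemokine Cxcl16, showed the same order of the Yaa arrays. Its brighter probe read -3.85, -3.61 and -3.06 in controls and -2.03, -2.72 and -0.86 in Yaa. The groups do not overlap, and Yaa replicate 3 was again the highest. The difference was 1.63 ± 0.47 (adjusted p = 0.140), and 0.59 with normexp background correction. The overlapping probe, which cleared background in 1 control, differed by 1.28 ± 0.43.

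For T and NK cells, which carry Cxcr3 and Cxcr6, the means of the marker lists were also highest on Yaa replicate 3. Not every marker was. Among 10 measured T cell markers none passed limma's test and 3 had an unadjusted p under 0.05, with a median of 0.99. Their mean signal was -1.67 to -1.22 on the control arrays and -0.30, -1.39 and 0.62 in Yaa, so that Yaa replicate 2 lay within the control range. Cd3g, a chain of the T cell receptor complex, stood at 2.01 ± 0.81, Cd5 at 1.96 ± 0.73 and Lat at 1.29 ± 0.53. Without Yaa replicate 3 these were 1.02, 1.07 and 0.62. Other T cell markers had another order in Yaa: Cd8a read -0.11, -4.43 and -3.93 and Cd4 read 1.88, 1.92 and 1.63. Their differences were 0.47 ± 1.06 and 0.13 ± 0.19. Of 5 NK cell markers 1 rose, Klrd1, a lectin receptor, by 1.63 ± 0.31 (adjusted p = 0.0391), a call that was lost with the replicate number as a block (adjusted p = 0.0792), with normexp correction (0.136), with no filter on dim probes (0.139), without any 1 control array (0.0811 to 0.160) and without Yaa replicate 1 (0.0694). The mean of the NK list ran from -2.13 to -1.69 on control arrays and was -1.16, -1.12 and -0.03 in Yaa. The share of T and NK cells in the values of Cxcr3 and Cxcr6 was not tested.

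**Figure D2:**
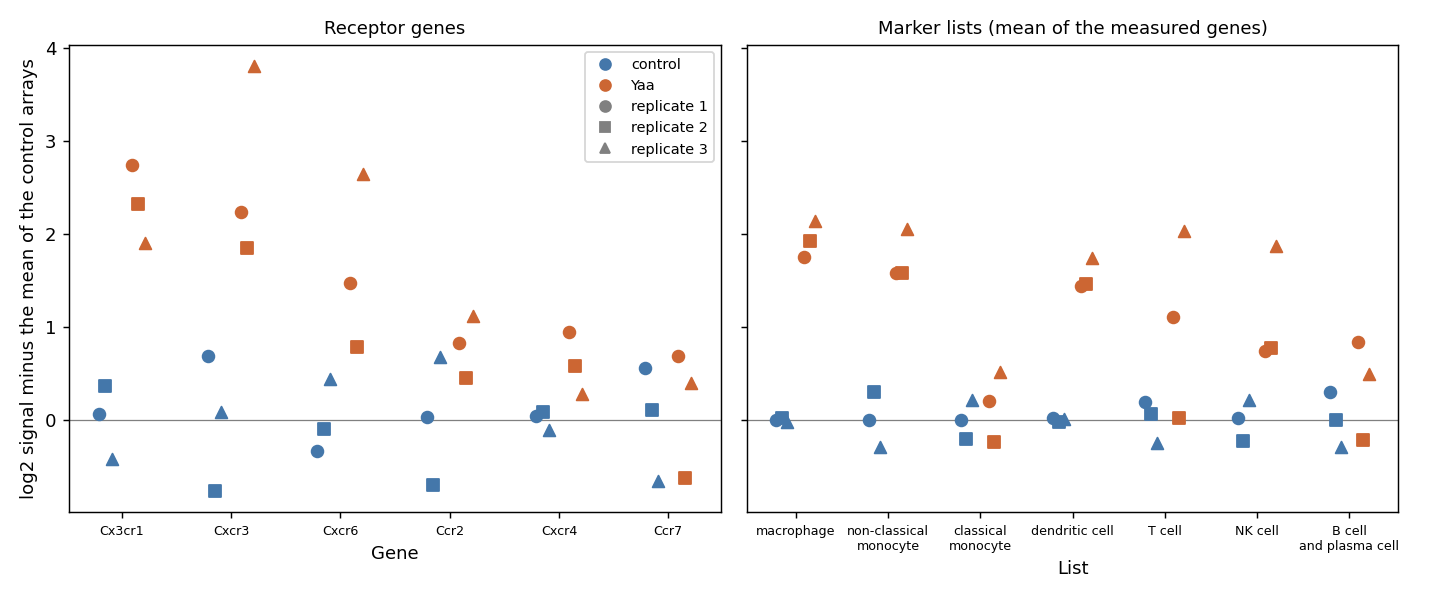
The vertical axis gives log2 signal minus the mean of the 3 control arrays, at left for the 6 measured receptors and at right for the mean of each list of cell markers, with colour for strain and symbol for replicate. Yaa replicate 3 is the highest array for Cxcr3, Cxcr6, Ccr2 and every plotted marker list but that of B cells and plasma cells, whereas Cx3cr1 is highest on Yaa replicate 1.

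Cxcr4, the receptor for Cxcl12, had a small difference that did not pass. It read -0.55, -0.51 and -0.70 in controls and 0.36, -0.01 and -0.31 in Yaa. All Yaa arrays were higher, yet the lowest of them was closer to the controls than to the highest Yaa array. The difference was 0.60 ± 0.19 (adjusted p = 0.184).

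Ccr7, the lymph node homing receptor, did not separate the strains. It read 0.35, -0.10 and -0.86 in controls and 0.48, -0.83 and 0.19 in Yaa. The groups overlap nearly completely, and the difference was 0.15 ± 0.42 (adjusted p = 0.879). It turned to -0.18 without control replicate 3 and to -0.12 without Yaa replicate 1. B cell and plasma cell markers had a similar order of arrays, with list means of -0.16, -0.46 and -0.74 in controls and 0.38, -0.67 and 0.03 in Yaa. Of the 8 measured, 1 rose, Jchain (Igj on the array), the joining chain of secreted antibodies, by 1.87 ± 0.32 (adjusted p = 0.0251). That call was lost with the replicate block (adjusted p = 0.0651), with no filter on dim probes (0.0996) and without any 1 control array (0.0646 to 0.120), and the difference was 1.14 with normexp correction (0.0412). Dendritic cells are another source of Ccr7, and 3 of 6 measured markers of them rose, Itgax by 4.36 ± 0.26, Batf3 by 2.98 ± 0.27 and Flt3, above background on 1 control array, by 0.97 ± 0.12. With normexp correction Flt3 stood at 0.14 and no longer passed (adjusted p = 0.574), and Batf3 rose by 2.21. The other 3 did not pass: Clec9a stood at 1.18 ± 0.29, Zbtb46 at 0.01 ± 0.13 and Siglech at -0.22 ± 0.20. Siglech, at 7.75 to 8.48 over the arrays, was the brightest of the 6 measured dendritic cell markers. Which cells gave the Siglech signal was not tested. Ccl22 and Xcr1, also on that list, were not well above background on any array. The mean signal of the 6 measured dendritic cell markers was -0.63 to -0.57 on control and 0.84 to 1.14 on Yaa arrays. The part of dendritic cells in the values of Ccr7 was not tested.

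Whether the difference between strains was larger for Cx3cr1 than for the other receptors was compared array by array, over 5 pairs. It exceeded that of Ccr7 by 2.18, that of Cxcr4 by 1.73, that of Ccr2 by 1.53 and that of Cxcr6 by 0.69 log2 units, and lay 0.30 below that of Cxcr3. The two-sided exact permutation p was 0.10 for Ccr7 and Cxcr4, the smallest that 3 against 3 arrays allow (adjusted p = 0.25), 0.20 for Ccr2, 0.50 for Cxcr6 and 0.80 for Cxcr3. With so few arrays this test could not reach 0.05 for any pair, so a p above it says nothing on whether the receptors differ.

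Some chemokine receptors beyond the 7 were also measured, and those described here did not pass. Ccr6, of B cells and a subset of T cells, stood at 1.51 ± 0.56 (adjusted p = 0.256) and Ccr3, the eotaxin receptor, at 1.03 ± 0.31 (0.167), with 0.77 and 0.15 under normexp correction. Cxcr2, the neutrophil receptor, stood at -0.37 ± 0.37, and none of 7 neutrophil markers passed limma's test or had an unadjusted p under 0.05. Xcr1, Ccr4, Cxcr1 and Ccr1l1 were not well above background on any array, and Ccr8, Ccr9 and Cmklr1 on too few to be tested.

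The atypical receptors bind chemokines without signalling through G proteins and so remove them. None of 3 measured passed limma's test or had an unadjusted p under 0.05. Ackr2 (Ccbp2 on the array) stood at 0.28 ± 0.14, Ackr3 (Cxcr7), which also binds Cxcl12, at -0.24 ± 0.20 and Ackr4 (Ccrl1), which binds the Ccr7 ligands, at -0.76 ± 0.32. Ackr1 (Darc) gave no array above background.

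Of 15 measured ligands 5 were higher in Yaa and 10 did not pass; the median difference was 2.29 and no ligand fell. The count was 2 when probes had to be above background on all 6 arrays, which leaves out ligands that were dim in controls. Ccl4 rose by 5.64 ± 0.62, Ccl9 by 2.42 ± 0.19 and Ccl6 by 2.29 ± 0.29. Ccl3, whose control spots were all dim against background, was at least 13.7-fold higher in Yaa (3.77 on the log2 scale; fitted 4.38, adjusted p = 0.00697), but normexp correction gave 1.89, under the bound, and the replicate block an adjusted p of 0.0503. A bound sets the Yaa mean against, per control array, the higher of the probe's own signal and the lowest signal of any probe well above background. Ccl5 stood at 1.99 ± 0.45 (adjusted p = 0.0704), and passed with an intensity trend and robust variances (0.0466) and without Yaa replicate 2 (0.0479). The Ccr2 ligand Ccl2, which 1 control array of the 3 measured above background, rose by 4.72 ± 0.57, and by 2.34 with normexp correction. Ccl4 was likewise above background on 1 control array and rose by 3.04 with that correction.

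Cx3cl1, fractalkine, did not differ detectably: 6.21, 6.28 and 6.16 in controls and 6.54, 6.08 and 6.17 in Yaa, a difference of 0.05 ± 0.16 (adjusted p = 0.901). This is the ligand of the one receptor that rose. The Cxcr3 ligands Cxcl9 and Cxcl10 were, as the receptor was, highest on Yaa replicate 3. Cxcl10 read -0.25, -0.50 and 0.26 on control and 2.29, 1.91 and 6.20 in Yaa, a difference of 3.63 ± 1.07 (adjusted p = 0.154), and Cxcl9 differed by 3.36 ± 1.16 (0.219). Without Yaa replicate 3 both passed at smaller differences, Cxcl10 at 2.26 (adjusted p = 0.00911) and Cxcl9 at 1.85 (0.00209). With the kept probes of a gene averaged in place of the brightest, Cxcl9 differed by 5.23 (adjusted p = 0.0778). Cxcl11 stood at -0.26 ± 0.21. Cxcl16, the ligand of Cxcr6, stood at 0.75 ± 0.20 (adjusted p = 0.123), and Cxcl12 and Mif, ligands of Cxcr4, at 0.40 ± 0.19 and -0.20 ± 0.20. Ccl19, a ligand of Ccr7, stood at 0.08 ± 0.27, and Ccl8 at 2.78 ± 1.20 (adjusted p = 0.321). Within the same replicate number Ccl8 differed by 2.98, 2.89 and 2.49, and it passed with the replicate block (adjusted p = 0.00551), while normexp correction without the block gave 1.04 (0.405). Leaving out 1 array moved it between 1.77, without Yaa replicate 3, and 3.95, without control replicate 3. Ccl7 and Ccl12 were above background on too few arrays to be tested, and Ccl21 was not analysed here.

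**Figure D3:**
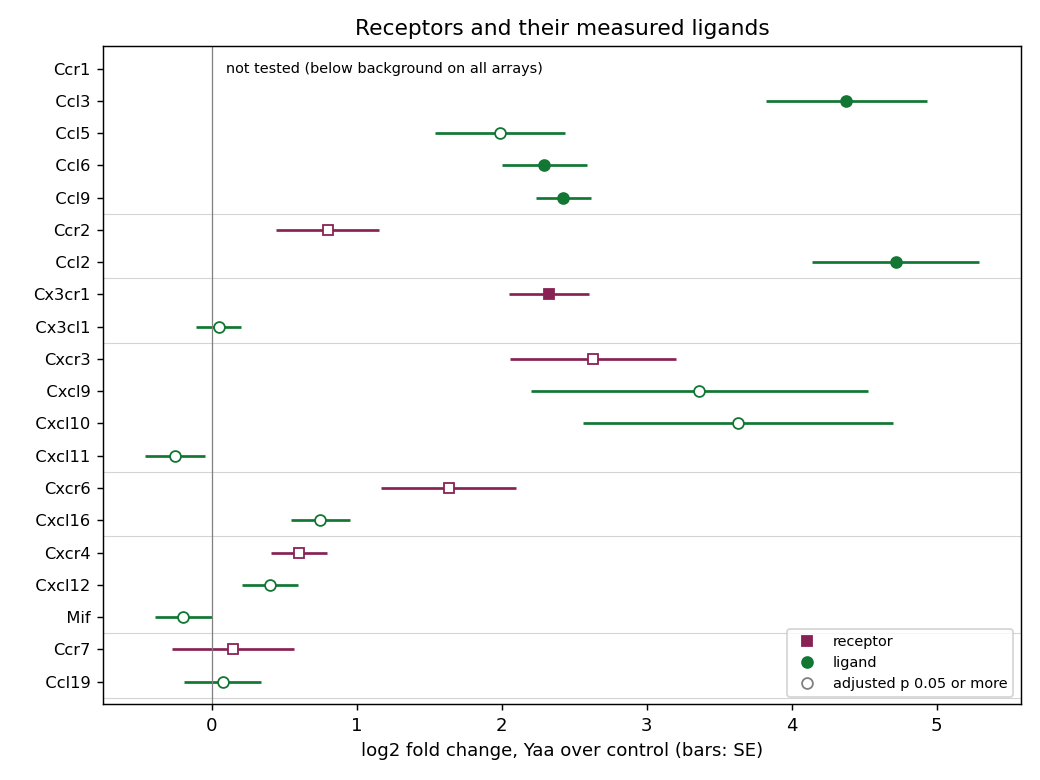
The horizontal axis gives the log2 difference of Yaa over control, with SE bars, for each receptor (squares) and, beneath it, its measured ligands (circles), without Ccl4 and Ccl8, filled where the adjusted p is under 0.05. Cx3cr1 is filled beside an open Cx3cl1 near 0, whereas Ccr2 is open beside a filled Ccl2.

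Downstream of the receptors, 6 of 21 measured signalling genes were higher in Yaa, none was lower, and the median difference was 0.07. Vav1, an exchange factor for Rac, rose by 3.08 ± 0.17, Grk3 (Adrbk2 on the array), a kinase that shuts receptors off, by 1.91 ± 0.11, Pik3cg, the catalytic subunit of PI3-kinase gamma, by 1.68 ± 0.11 and Rac2, the Rac GTPase of blood cells, by 2.95 ± 0.23. Pik3r5, a regulatory subunit of the same kinase, and Dock2, an activator of Rac in leukocytes, rose by 3.58 ± 0.35 and 2.87 ± 0.40. With the replicate block Dock2 no longer passed (adjusted p = 0.0568). With normexp correction Pik3r5 rose by 1.74, Dock2 by 1.04 and Pik3cg by 0.64, and all of them still passed.

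For each receptor the genes with the most similar profile were those with the smallest root mean square difference over the 6 arrays, after each gene was centred on its own mean. For Cx3cr1 they were Apoc2 (0.20), Tnfrsf1b (0.22) and Ear2 (0.23), with differences between the strains of 2.62, 2.38 and 2.69. For Cxcr3 they were Ptpn7 (0.26), Ccnf (0.36) and Ifi44l (0.36, H28 on the array), and for Cxcr6 Ch25h (0.19), Nfkbiz (0.22) and Fignl1 (0.25). Ccr7 lay nearest to Sidt1 (0.21), Ly6d (0.24) and Klra4 (0.24), Ccr2 to Dusp10 (0.22), Ranbp1 (0.23) and Smc2 (0.23), and Cxcr4 to Mlf1 (0.07), Bok (0.08) and Pheta2 (0.09, Fam109b on the array). These genes were picked for their likeness, and no test applies to it.

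**Figure D4:**
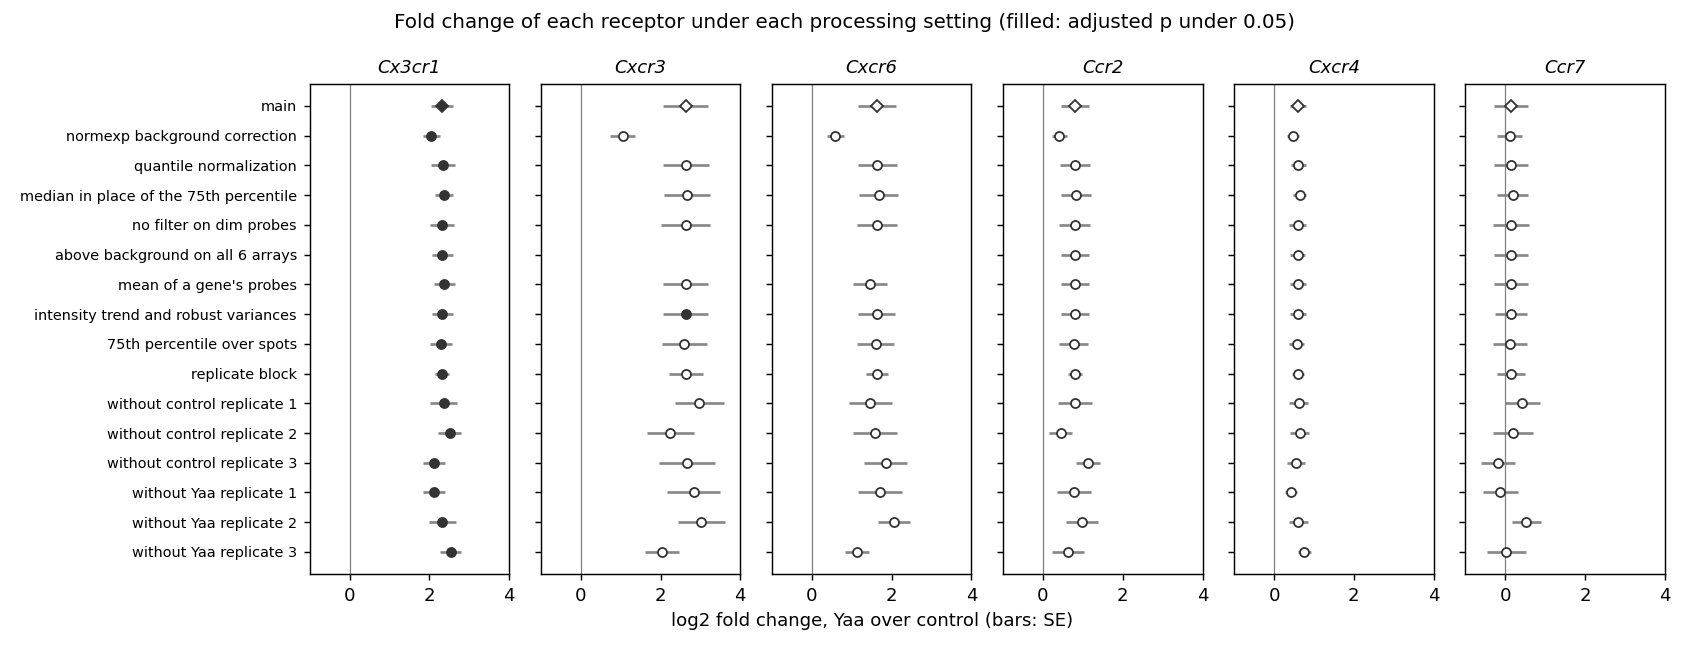
Each panel gives the log2 difference of Yaa over control with its SE for 1 receptor on the horizontal axis, with the processing settings and the arrays left out on the vertical axis, filled where the adjusted p is under 0.05. Cx3cr1 stays filled at 2.05 to 2.54 in all settings, while the values of Cxcr3, Cxcr6 and Ccr2 shrink with normexp correction.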

How the data were processed

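The authors deposited 1 Agilent scanner file per array, 6 in all, with spot signals in linear intensity, 1 colour (Cy3). Per the file headers, Feature Extraction 10.7.3.1 fitted and removed spatial trends, including the background surface, and put surrogate intensity values on dim spots. The submitters' processing notes name version 9.5.3. No spot was saturated. All arrays share 1 slide and 1 scan. Controls fill one slide column and Yaa arrays the other, so column and strain cannot be told apart.

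From these, control spots and flagged spots (121 to 166 per array) were dropped, the log2 signals of a probe's spots averaged and the array's 75th percentile over probes subtracted. Probes with at least a share of 0.5 of spots well above background on all 3 arrays of a group were kept (28598). The brightest stood for its gene. Genes (20716, 3 of them lacking an array) were tested by limma (version 3.58.1, R 4.3.3; 4 residual degrees of freedom, two-sided, Benjamini-Hochberg adjustment, threshold 0.05), after a test on simulated data. Nothing states that pools came from separate litters or days, and p-values measure the spread between these samples.

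The members, lists, named genes (all receptors and ligands, up to 4 genes per other list by p, and 3 nearest profiles per receptor) and alternatives were chosen with earlier results of these data known. Marker genes named outside this choice did not pass or could not be tested. Deviations from the group means correlated at 0.126, 0.205 and 0.218 between arrays of the same replicate number and at -0.194 to 0.0279 otherwise, so the numbers, which run with the slide row, were treated as pairing the samples in the alternative with a replicate block. Current symbols came from RefSeq (GRCm38.p6, names only). Some items are not reported here.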

Additional observations from a re-analysis of the deposited data

How the results depend on the processing

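The direction of Cx3cr1, Cxcr3, Cxcr6, Ccr2 and Cxcr4 held in every alternative that could be run, and the calls held in all but 1: with an intensity trend and robust variances Cxcr3 passed at 2.63 (adjusted p = 0.0457), which brought the receptors called to 2. Leaving out 1 array gave 1 receptor called each time, with 2.11 to 2.54 for Cx3cr1 (adjusted p from 0.00667 to 0.0264), 2.04 to 3.02 for Cxcr3, 1.13 to 2.06 for Cxcr6, 0.45 to 1.14 for Ccr2, 0.43 to 0.76 for Cxcr4 and -0.18 to 0.54 for Ccr7, which reversed without control replicate 3 (-0.18) and without Yaa replicate 1 (-0.12). The causes were not tested. The adjusted p of Cx3cr1 over the other alternatives ran from 0.00160 to 0.0292. With the replicate block, Cx3cr1 stayed at 2.33 (adjusted p = 0.00940) and Cxcr6 had an adjusted p of 0.0683; the block changed no receptor's call. Over all genes 790 were called, 396 with no filter on dim probes, which tests more genes, and 395 to 1027 with 1 array left out (436, 408 and 395 without control replicates 1, 2 and 3). Cxcr3 and Cxcr6 have no value when a probe must be above background on all 6 arrays, and Ccr1 is not above background on any. The percentile over spots in place of probes was added after the data were seen. Signals near background limit Cxcr3 and Cxcr6, and Ccr1 could not be measured.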
